A study of Mus musculus with 25 samples.

Results

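Hepatocytes from C57BL/6 mice (BL/6) were compared 24 hours after injection of a Cre-carrying virus with hepatocytes from untreated mice of the same strain. The comparison used the 3 libraries labelled BL/6 AAV-Cre and the 4 labelled BL/6 ctrl, 7 of the 25 libraries of a study of the growth regulator YAP in mouse liver, and it covered all 12970 genes with enough counts to be tested. The virus was an adeno-associated virus of serotype 8, given by tail vein at 5e11 genome copies in 200 µl of saline, with the Cre recombinase gene behind the TBG promoter, which is active in hepatocytes. BL/6 mice carry no floxed alleles according to their strain label, and their effective genotype is given as WT, so Cre had no engineered target there, although the protocol text filed with these samples speaks of Lats1 and Lats2 floxed mice. Control mice were untreated and not injected with saline or with a virus lacking Cre. Virus, Cre and injection can therefore not be told apart. Cre itself is not among the mouse genes counted, so the share of hepatocytes reached by the virus was not measured.

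Livers were perfused with collagenase and 500000 sorted cells were lysed per sample, per the labels. RNA was read at the 3′ ends of transcripts. The labels give no age, sex, time of day or batch, and do not say whether the replicates were separate mice. The p-values therefore measure the spread between libraries, which the main fit estimated within the groups of all 25 libraries. A batch that followed the groups cannot be told apart from AAV-Cre or from strain. Other groups appear below only as comparison points. They are BL/6 mice given doxycycline (0.2 mg/ml, in water with 2.5% sucrose) for 1 week (BL/6 Dox, n = 4), untreated mice with an ApoE-driven rtTA and an inducible human YAP transgene (ApoYap ctrl, n = 4), untreated mice with floxed Lats1 and Lats2 (Lats1/2 flox ctrl, n = 4), and the same floxed mice 1 week after the same dose of the same virus (Lats1/2 KO, n = 3).

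Adeno-associated virus brings a single-stranded DNA genome into the nucleus. Infected cells can sense foreign nucleic acid through receptors that switch on interferon and NF-kB target genes. The transcription factor p53 responds to damaged DNA and other stresses and raises a set of target genes, among them the cell cycle inhibitor Cdkn1a and its own inhibitor Mdm2. Hepatocytes also answer inflammatory cytokines with acute phase proteins, and many of their metabolic genes follow the time of day. Gene lists for these programs and for liver functions were compared member by member.

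Total counts ran from 9179607 to 12091007 in the AAV-Cre libraries and from 9522508 to 14317362 in the controls, so that 1 count was worth 0.0786 to 0.119 CPM (counts per 1000000 of a library). Levels below are CPM with TMM scaling. The AAV-Cre libraries were unlike each other. On the first principal component of the 7 libraries, which held 27.4% of the variance, AAV-Cre 2 lay at 51.2, AAV-Cre 3 at 24.7 and AAV-Cre 1 at -4.55, beside controls from -28.3 to -8.82. AAV-Cre 2 also held RNA of the exocrine pancreas. The 20 acinar genes examined, listed after their values were seen, summed to 557 unscaled CPM in AAV-Cre 2 but to 19.0 in AAV-Cre 1, 25.4 in AAV-Cre 3 and 20.9 to 30.2 in the controls. Cpb1, a pancreatic carboxypeptidase, had 392 counts in AAV-Cre 2 and at most 1 in the other 6 libraries. The sum reached 926 unscaled CPM in Lats1/2 flox ctrl 4 and 239 in BL/6 Dox 1.

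At an adjusted p under 0.05 (edgeR quasi-likelihood test, Benjamini-Hochberg over all genes), 39 of 12970 genes were called (0.301%), 33 higher after AAV-Cre (0.254%) and 6 lower (0.0463%). Among the 33, 12 rose at least to a doubling. No called gene had overlapping values between the 3 AAV-Cre and the 4 control libraries, while 8.3% of all tested genes lay wholly above the controls and 7.52% wholly below. Without adjustment, 1009 genes were higher at p under 0.05 (7.78%) and 711 lower (5.48%). The count also depended on the method, with 278 higher and 224 lower when the 7 libraries were fitted alone, 140 and 51 by DESeq2 and 327 and 191 by limma voom. It rested on single libraries too. Without AAV-Cre 1 there were 99 higher and 22 lower, without AAV-Cre 2 14 and 1, and without AAV-Cre 3 6 and 1. Without control 1, 2, 3 or 4 there were 6, 17, 8 or 21 higher and 3, 4, 3 or 4 lower. Ccng1, Cdkn1a, Nfe2l2, Lrrc58 and Upf1 were the 5 genes called in all 7 of these fits.

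**Figure D1:**
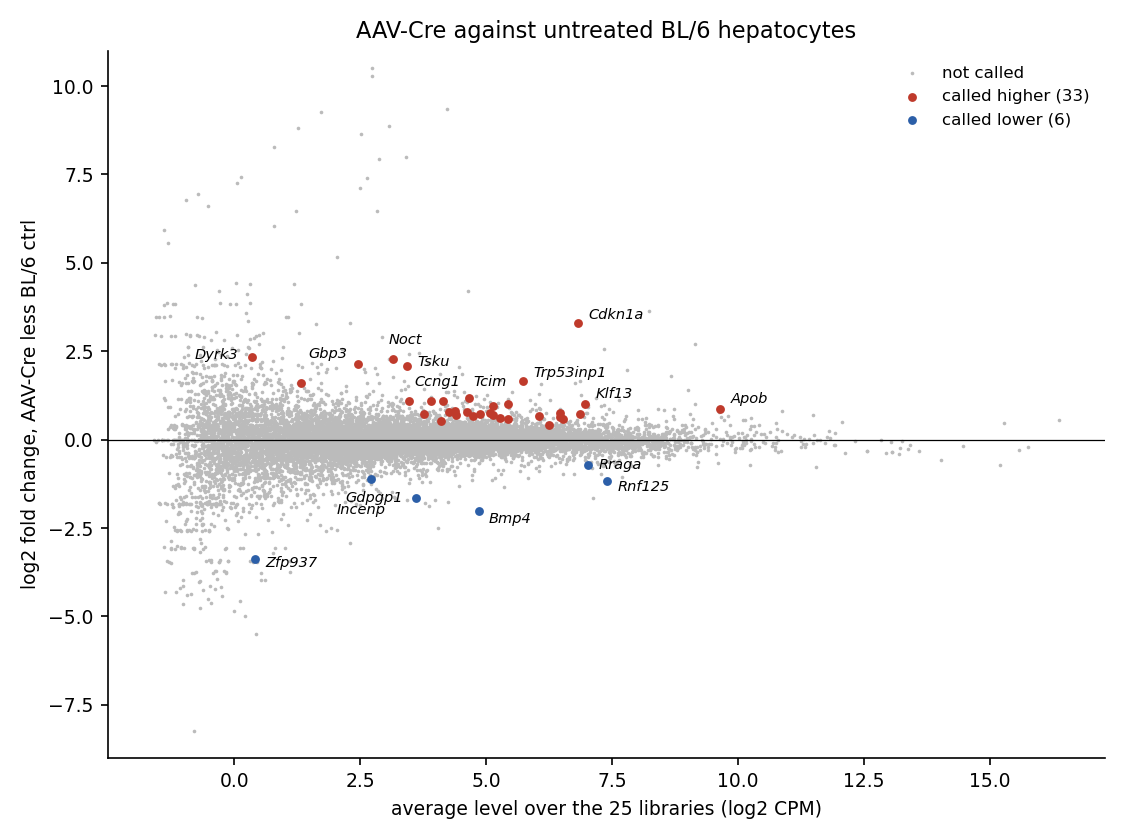
Each point is 1 of 12970 genes, with its average level over the 25 libraries on the horizontal axis (log2 CPM) and its log2 fold change, AAV-Cre less BL/6 ctrl, on the vertical axis. The 33 genes called higher are red and the 6 called lower blue; Cdkn1a stands at 3.29 and Zfp937 at -3.38, and the grey points above 5 include pancreatic transcripts of AAV-Cre 2, of which none was called.

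Known targets of p53 included the largest rise among the called genes and the smallest adjusted p. The promoter windows of Cdkn1a, Ccng1 and Gbp3 are shown because these genes carry the p53 and interferon results below, and because a motif search on both strands found the matching element in each. The sequences run from 250 to 27 bases before the start of the RefSeq transcript (GRCm38.p6), 5′ to 3′ on the gene's strand. Capitals mark a p53 half-site in Cdkn1a (chr17:29090729-29090952, plus strand) and Ccng1 (chr11:40755313-40755536, minus strand), and the core of an interferon-stimulated response element, GAAANNGAAA on either strand, in Gbp3 (chr3:142559794-142560017, plus strand).
Cdkn1a: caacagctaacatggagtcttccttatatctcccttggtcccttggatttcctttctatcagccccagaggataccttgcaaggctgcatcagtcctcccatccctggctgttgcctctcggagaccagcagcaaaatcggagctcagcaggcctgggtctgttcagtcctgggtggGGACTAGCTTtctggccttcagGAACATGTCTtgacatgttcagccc
Ccng1: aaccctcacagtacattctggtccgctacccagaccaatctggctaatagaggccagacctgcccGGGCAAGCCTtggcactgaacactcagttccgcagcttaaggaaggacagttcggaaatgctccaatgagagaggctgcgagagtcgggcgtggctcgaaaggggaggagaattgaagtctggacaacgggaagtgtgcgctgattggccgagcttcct
Gbp3: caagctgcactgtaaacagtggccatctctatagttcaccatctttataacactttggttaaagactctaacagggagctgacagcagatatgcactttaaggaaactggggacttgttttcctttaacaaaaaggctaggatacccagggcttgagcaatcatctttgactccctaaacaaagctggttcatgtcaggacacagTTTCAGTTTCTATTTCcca
The half-sites of Cdkn1a begin 73 and 51 bases before the start and that of Ccng1 185 bases before it. The response element cores of Gbp3 lie on the minus strand, begin 45 and 39 bases before the start and overlap each other, and its window also holds a p53 half-site at 140 bases.

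Of all 32851 RefSeq windows of this length, 6.44% held a p53 half-site and 2.67% the interferon element core. Among the genes called higher, 27 of 33 were in the table with 34 windows. Trp53inp1 was not among the 27, so its promoter was not searched. A half-site stood in 4 of these windows (11.8%), those of Camsap2, Ccng1, Cdkn1a and Gbp3, and the interferon element in 3 (8.82%), those of Gbp3, Gfra1 and Tmc7. Neither was found in the 4 windows of the genes called lower. Of the 24 genes listed as p53 targets, 20 were in the table and 10 had a half-site in a window (35.7% of 28 windows). These genes were listed as known targets, so that share describes the list. A match describes the letters of a window and does not show that p53 was bound there.

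Cdkn1a, which encodes the cell cycle inhibitor p21, showed the largest fold change among the called genes that rose. The gene lies at chr17:29090976-29100727 on the plus strand (GRCm38). Its level was 130, 189 and 278 CPM in AAV-Cre 1, 2 and 3, and 24.4, 13.1, 20.1 and 23.5 CPM in controls 1 to 4. The lowest treated library lay several times above the highest control. The log2 fold change was 3.29 ± 0.49 (SE, n = 3 and 4; adjusted p = 0.00741 by edgeR), and it was called in each fit that left out a library, with adjusted p-values up to 0.0416.

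Ccng1 encodes cyclin G1, a p53 target that regulates MDM2, and lies at chr11:40748552-40755311 on the minus strand. It had 21.7, 26.5 and 32.9 CPM after AAV-Cre and 11.3, 11.7, 14.4 and 13.4 CPM in the controls. The groups were tight and did not overlap. Its log2 fold change of 1.09 ± 0.15 gave the smallest adjusted p of the comparison (0.00177, edgeR), and it was called under 22 of 23 alternative settings, the exception being a test against a fold of 1.5.

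Trp53inp1 encodes a stress-induced nuclear protein that promotes p53 activity and autophagy, at chr4:11156431-11174379 on the plus strand. It had 105, 128 and 150 CPM after AAV-Cre and 30.6, 29.96, 31.9 and 69.2 CPM in the controls. Control 4 stood apart from the other 3 but still lay below every treated library. The log2 fold change was 1.66 ± 0.34 (adjusted p = 0.0391, edgeR). It was 2.05 without control 4 (adjusted p = 0.0103), whereas without AAV-Cre 2 or 3 or controls 1, 2 or 3 the call was lost at adjusted p-values of 0.0971 to 0.206.

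Mdm2, the ubiquitin ligase that marks p53 for degradation, had 34.3, 29.1 and 55.6 CPM after AAV-Cre and 25.5, 23.9, 24.5 and 23.8 CPM in the controls. Its values did not overlap either, but at a log2 fold change of 0.70 ± 0.17 it missed the threshold (adjusted p = 0.0695, edgeR). It was called without AAV-Cre 1 (adjusted p = 0.0462) or AAV-Cre 2 (0.0474), and its log2 fold change was 0.37 without AAV-Cre 3 (0.461). Zmat3, an RNA-binding p53 target, missed it as narrowly at 0.85 ± 0.20 (adjusted p = 0.063). Plk2, a polo-like kinase, had 8.11, 9.11 and 9.86 CPM after AAV-Cre against 3.06 to 6.21 CPM in the controls (log2 fold change 0.95, adjusted p = 0.182). Gdf15, a stress cytokine, had 180, 272 and 382 CPM, and control 3 with 233 CPM overlapped them. Eda2r and Phlda3 were near the limit of detection, with 0 counts in 3 of 4 controls and at most 2.42 and 0.837 CPM in the treated libraries, and neither was called (adjusted p = 0.0835 and 0.0869).

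Of the 24 p53 targets, 3 were called higher and none lower, beside 0.254% and 0.0463% of all genes. Another 10 passed p under 0.05 without adjustment, for 13 in all and none lower. The fold change was above 0 for 20 of 24, beside 49.5% of all genes, and the median log2 fold change of the list was 0.82, beside -0.002 for all genes. The 4 targets below 0 were Ckap2, Gtse1, Sesn1 and Bbc3, of which Ckap2 and Gtse1 are also genes of dividing cells. Each treated library showed the shift. Relative to the control mean on a log2(CPM + 0.5) scale, the median target differed by 0.43 in AAV-Cre 1, 0.63 in AAV-Cre 2 and 0.74 in AAV-Cre 3, while the controls ranged from -0.12 to 0.06. Genes of DNA repair and checkpoint signalling did not share it, with 0 of 18 called and a median of 0.11; 1 of them was higher at an unadjusted p under 0.05 by edgeR. Trp53 itself, measured as RNA, had a log2 fold change of 0.17 (adjusted p = 0.886). Over both parts, the list of 42 genes had 3 calls. It had 2 without control 1, 2 or 3 or AAV-Cre 3, and 5 without AAV-Cre 1. That last fit called 0.933% of all genes. DESeq2 called 5 members and limma voom 8, beside 1.47% and 3.99% of all genes.

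**Figure D2:**
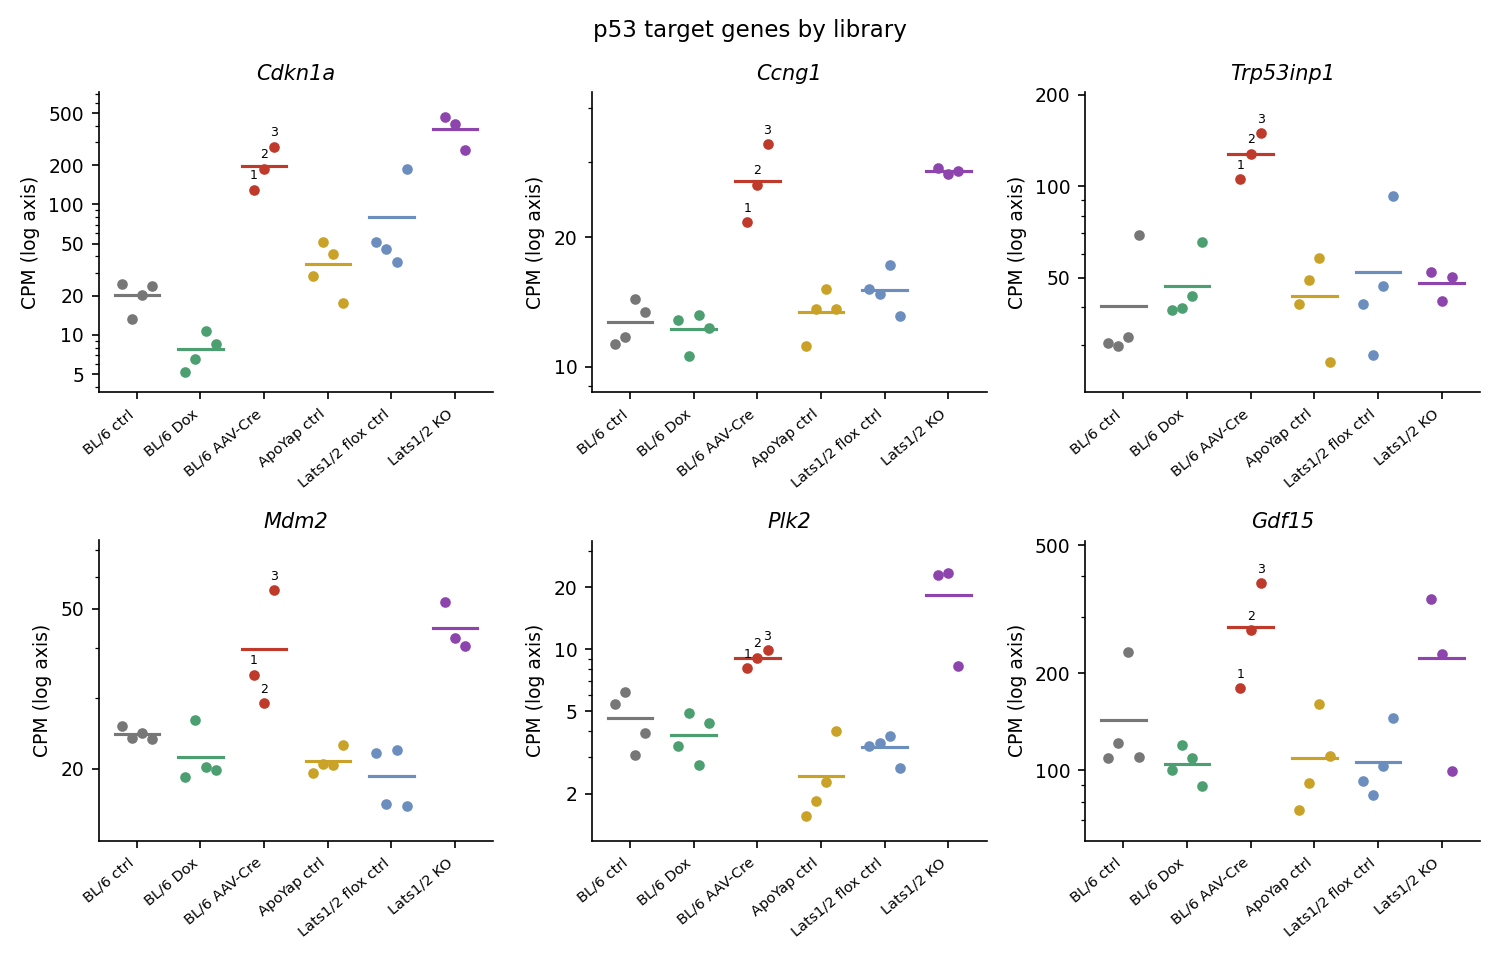
Level of 6 p53 target genes (CPM, logarithmic axis) in every library of 6 groups; points are libraries, horizontal lines are group means, and the AAV-Cre points carry their replicate numbers. For Cdkn1a, Ccng1 and Trp53inp1 the 3 AAV-Cre points lie above all 4 BL/6 ctrl points, while for Gdf15 control 3 (233 CPM) lies between AAV-Cre 1 and AAV-Cre 2.

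Interferon-induced genes divided the treated libraries. Gbp3, an interferon-inducible GTPase at chr3:142560026-142573209 on the plus strand, was the 1 called member of 70 tested. It had 2.35, 10.1 and 6.89 CPM after AAV-Cre and 1.81, 0.597, 1.41 and 1.92 CPM in the controls. AAV-Cre 1 lay just above the highest control, and the other two were several times higher. The log2 fold change was 2.13 ± 0.47 (adjusted p = 0.045, edgeR). The call held without AAV-Cre 1 (adjusted p = 0.00983) and was lost without any 1 of the other 6 libraries (0.078 to 0.23). Guanylate-binding proteins are a family of similar genes, so reads may have been shared among them.

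Irf7, the transcription factor that amplifies type I interferon, had 14.3 CPM in AAV-Cre 1, 60.8 in AAV-Cre 2 and 69.4 in AAV-Cre 3, and the controls had 13.1 to 16.7 CPM. AAV-Cre 1 sat inside the control range. The log2 fold change of Irf7 was 1.68 ± 0.37 with an adjusted p of 0.0513 by edgeR. It was 2.11 with 0.000325 when AAV-Cre 1, the library without the rise, was left out. The adjusted p was 0.204 without AAV-Cre 2, 0.296 without AAV-Cre 3 and 0.0971 to 0.132 without 1 control. Ifi44, a classical interferon-stimulated gene, had 0.747, 37.5 and 27.6 CPM, beside 3.41 to 5.11 CPM in the controls. Here AAV-Cre 1 lay below every control. Isg15, a ubiquitin-like interferon-induced modifier, followed the same order with 10.7, 80.9 and 36.2 CPM against 13.2 to 21.5 CPM in the controls, and neither gene was called (adjusted p = 0.129 and 0.256).

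The whole list repeated that order. Of the 41 effectors of the interferon response, 40 exceeded the highest control in AAV-Cre 2 and 33 in AAV-Cre 3, but 1 in AAV-Cre 1, where 23 lay below the lowest control. For all genes the share above the highest control was 25.2% in AAV-Cre 1, 26% in AAV-Cre 2 and 25.3% in AAV-Cre 3. Their median difference from the control mean was -0.45, 1.26 and 0.73 on the log2(CPM + 0.5) scale in AAV-Cre 1, 2 and 3, with controls between -0.14 and 0.23. Over the 3 libraries, 31 of the 70 genes were higher and 1 lower at an unadjusted p under 0.05, and the median log2 fold change was 0.58. Without AAV-Cre 1 the count of called members was 19, and without AAV-Cre 2, AAV-Cre 3 or any 1 control it was 0. Leaving out AAV-Cre 1, whose effector median lay below every control, gave 121 calls among all genes (0.933%, beside 0.301% with every library). DESeq2 called 8 and limma voom 9, beside 1.47% and 3.99% of all genes. The genes that sense foreign nucleic acid were not called (0 of 14, median -0.01; 0 higher and 1 lower at an unadjusted p under 0.05 by edgeR), nor were receptors and trafficking factors of adeno-associated virus (0 of 14, median 0.03; 1 higher and 0 lower).

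In the medians of NF-kB targets and acute phase genes AAV-Cre 1 again lay below AAV-Cre 2 and 3, but within the control range. No member of either list was called. Nfkbia, the feedback inhibitor of NF-kB, had 297, 1064 and 1014 CPM after AAV-Cre and 188, 158, 157 and 400 CPM in the controls (log2 fold change 1.81, adjusted p = 0.0962 by edgeR). AAV-Cre 1 lay below control 4. Among the 20 NF-kB targets 6 were higher and 1 lower at an unadjusted p under 0.05, with a median log2 fold change of 0.69. Library medians were -0.36, 0.53 and 1.17 beside -0.38 to 0.59 in the controls, so that only AAV-Cre 3 lay above the control range. Lcn2, an iron-binding acute phase protein, had 7.15, 231 and 59.3 CPM against 3.04 to 12.2 CPM (log2 fold change 4.21, adjusted p = 0.102). Saa2, a serum amyloid A gene whose close copies could share its reads, had 154, 2141 and 349 CPM against 31.7 to 167 CPM (adjusted p = 0.201). Its range in the untreated flox ctrl libraries was as wide, from 33.0 to 2432 CPM. Of 35 acute phase genes, 19 were higher and 0 lower at an unadjusted p under 0.05. In AAV-Cre 2 30 of them exceeded every control (85.7%, beside 26% of all genes). The number was 23 in AAV-Cre 3 (65.7%, beside 25.3%) and 4 in AAV-Cre 1 (11.4%, beside 25.2%). Library medians of the list were 0.006, 0.93 and 0.84 in AAV-Cre 1, 2 and 3, beside -0.16 to 0.24 in the controls. DESeq2 called 5 acute phase genes and 1 NF-kB target, and limma voom 3 and 1, where these tools called 1.47% and 3.99% of all genes. Without AAV-Cre 1 the counts were 3 and 1, and without control 4 1 acute phase gene was called. These fits called 0.933% and 0.193% of all genes.

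**Figure D3:**
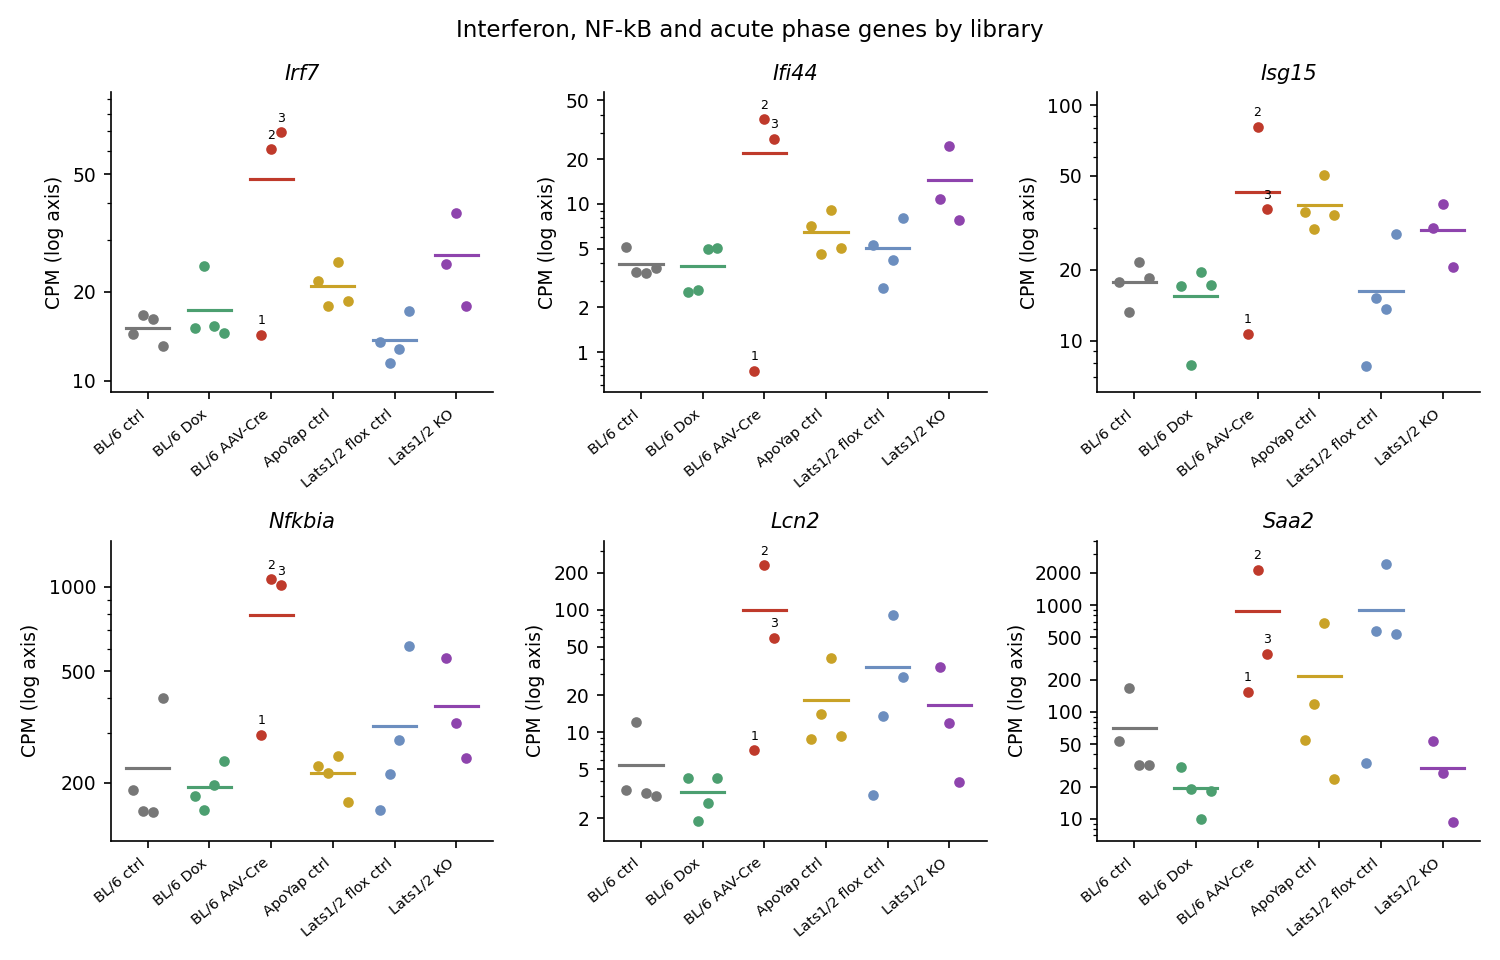
Level of 6 interferon, NF-kB and acute phase genes (CPM, logarithmic axis) in every library of 6 groups; points are libraries, horizontal lines are group means, and the AAV-Cre points carry their replicate numbers. In all 6 panels AAV-Cre 2 and 3 lie above the 4 BL/6 ctrl points and AAV-Cre 1 does not.

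Kupffer cells are resident macrophages of the liver and respond strongly to such signals. Their 21 markers ordered the AAV-Cre libraries as the interferon genes did, with medians of -0.67, 0.74 and 0.40 in AAV-Cre 1, 2 and 3, and controls from -0.57 to 0.59. Summed over the list, unscaled CPM ran from 128 to 378 after AAV-Cre and from 139 to 320 in the controls, and 0 of 21 markers were called (0 in either direction at an unadjusted p under 0.05 by edgeR). In neutrophils, Mmp8, Ly6g, Camp, Ngp, Ltf and Mpo had no count in any of the 7 libraries, and the 13 markers summed to 0.936 to 1.74 unscaled CPM after AAV-Cre and 0.63 to 1.22 in the controls. Lymphocyte markers summed to at most 2.88 unscaled CPM, with Cd3d, Cd8a, Trac and Cd79a at 0. Dendritic cell markers summed to 62.2 to 153 unscaled CPM after AAV-Cre and 76.3 to 106 in the controls. Pancreatic transcripts, high in AAV-Cre 2, were at control level in AAV-Cre 3. The part of these cells in the inflammatory differences was not tested, and in bulk RNA fewer cells of a type cannot be told apart from less RNA per cell.

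Clock-controlled output genes had medians above the control range in all 3 treated libraries, and 1 of them was called. Noct, which encodes nocturnin, a phosphatase of NADPH with a strong daily rhythm in liver, lies at chr3:51224447-51251644 on the plus strand. It had 29.7, 25.2 and 23.5 CPM after AAV-Cre and 2.99, 6.45, 3.77 and 8.45 CPM in the controls, a rise of 2.28 ± 0.39 on the log2 scale (adjusted p = 0.00937, edgeR). Both groups were well apart, although the call was lost without control 1 or control 3 (0.0546 and 0.0595). Of 9 clock-controlled output genes, Noct was the 1 called and 5 had no overlap between groups (8.3% of all genes lay above the controls). Their median log2 fold change was 1.02, and the library medians of 0.89, 1.06 and 0.98 lay above the control range of -0.30 to 0.44. The rest of the clock list did not share this shift. All 28 clock genes had a median of 0.16, with 18 above 0 and 10 below. Medians were -0.14 for 3 core activators, 0.12 for 10 repressors and 0.006 for 6 other regulators. Por, the reductase that feeds electrons to cytochromes P450, had 228, 240 and 242 CPM against 112 to 157 CPM (0.93, adjusted p = 0.0513). Usp2, a rhythmic deubiquitinase, had 30.2, 21.5 and 17.6 CPM against 2.51 to 10.0 CPM (2.16, adjusted p = 0.0708). Per1, a repressor of the core clock, had 10.4, 9.70 and 11.5 CPM, just above the 9.01 CPM of control 4, while the other controls had at most 1.49 CPM (adjusted p = 0.154). The activator Npas2 had the opposite sign, with 0.320, 0.355 and 0.279 CPM against 0.716 to 2.93 CPM (-2.60, adjusted p = 0.0677). With the time of day not given, a difference in sampling time cannot be told apart from the treatment here.

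Glucocorticoids, the stress steroids, act on some of the same genes. None of 13 glucocorticoid targets was called, and the median log2 fold change was 0.86. At an unadjusted p under 0.05 by edgeR 7 were higher and 0 lower, beside 7.78% and 5.48% of all genes. The values of 5 lay wholly above the controls, beside 8.3% of all genes. Tsc22d3, the leucine zipper protein induced by glucocorticoids, had 129, 119 and 89.98 CPM after AAV-Cre and 21.8, 37.0, 29.2 and 64.8 CPM in the controls (1.56 ± 0.41, adjusted p = 0.102). The library medians were 0.21, 0.67 and 1.02, beside -0.20 to 0.13 in the controls. All 3 lay above the controls, AAV-Cre 1 by the least.

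**Figure D4:**
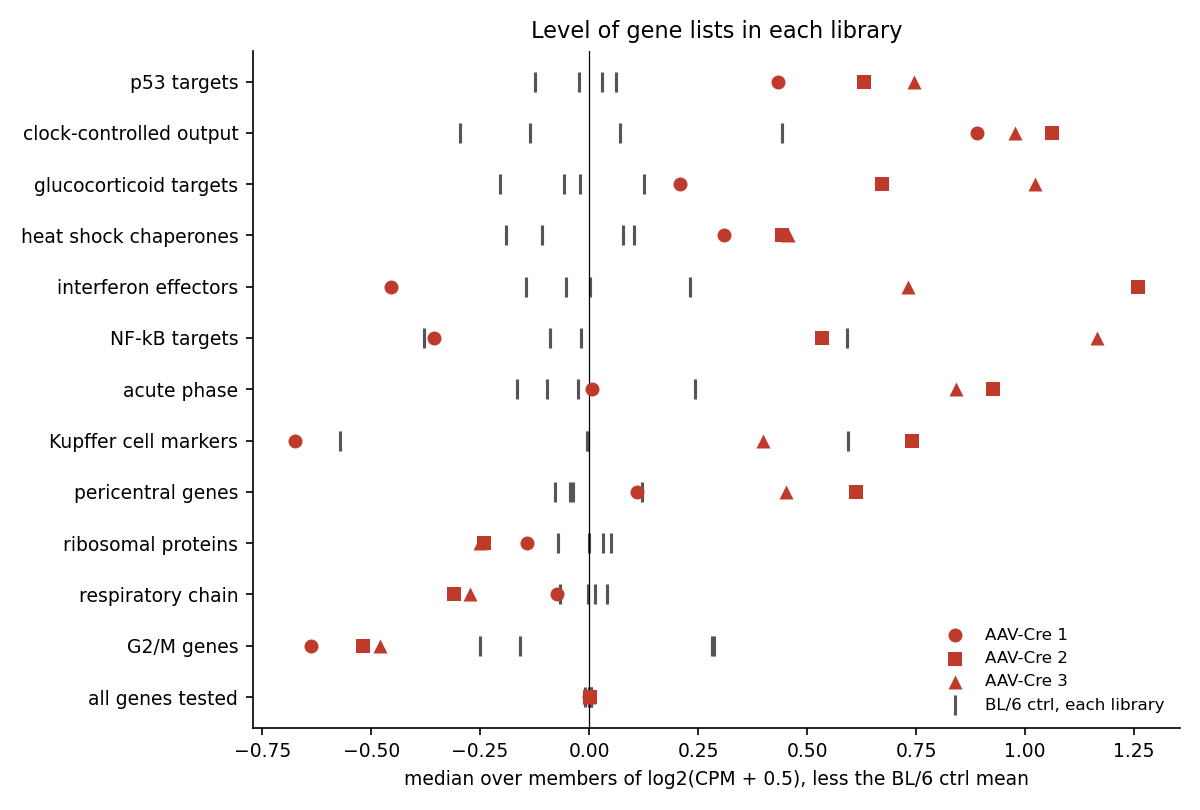
For each gene list, the median over its members of log2(CPM + 0.5) less the BL/6 ctrl mean, in every library; red symbols are the AAV-Cre libraries and grey ticks the 4 controls. All 3 red symbols lie outside the control range for p53 targets, clock output, glucocorticoid targets, heat shock chaperones, ribosomal proteins and G2/M genes, whereas AAV-Cre 1 lies on the other side of 0 from AAV-Cre 2 and 3 for interferon effectors, NF-kB targets and Kupffer cell markers.

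Nfe2l2 encodes NRF2, the regulator of antioxidant genes, at chr2:75675513-75704641 on the minus strand. It had 129, 132 and 161 CPM after AAV-Cre and 84.7, 80.3, 76.8 and 96.2 CPM in the controls. The rise of 0.74 ± 0.11 on the log2 scale was small and even (adjusted p = 0.00211, edgeR). Its targets did not pass the test, since 0 of the other 21 members of the antioxidant list were called and the median of all 22 was 0.08. Nfe2l2 included, 6 of the 22 were higher and 1 lower at an unadjusted p under 0.05 by edgeR, beside 7.78% and 5.48% of all genes. In AAV-Cre 1, 2 and 3, 7, 8 and 15 of them lay above every control (68.2% in AAV-Cre 3). Of all genes 25.2%, 26% and 25.3% did so, and the list stood furthest above these shares in AAV-Cre 3. Txnrd1, a thioredoxin reductase under NRF2 control, came nearest at 0.54 ± 0.13 (adjusted p = 0.0677).

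Chaperones keep proteins folded under heat and other stresses. Of 20 heat shock genes 0 were called, 18 had a fold change above 0, 7 were higher and 0 lower at an unadjusted p under 0.05 by edgeR, and the median was 0.42. Hspb1, a small heat shock protein, had 58.8, 58.1 and 51.6 CPM after AAV-Cre and 25.3, 28.2, 26.5 and 37.1 CPM in the controls (0.94, adjusted p = 0.0962). Bag3, a cochaperone of HSP70, had 40.8, 59.7 and 62.8 CPM against 21.5 to 36.6 CPM (0.88, adjusted p = 0.0938). Outside the list, Dnajb4, an HSP40 cochaperone, was called (43.8, 50.3 and 54.9 CPM against 21.2 to 34.7; 0.95 ± 0.20, adjusted p = 0.0342), as was Cacybp, a cochaperone of ubiquitin ligases (54.8, 54.6 and 60.2 CPM against 33.7 to 41.8; 0.58 ± 0.11, adjusted p = 0.0112). The Cacybp call was lost without control 1, control 3 or AAV-Cre 3 (0.0546 to 0.142), and that of Dnajb4 held only without control 4 or AAV-Cre 1 (0.0853 to 0.206 otherwise). In untreated Lats1/2 flox ctrl, Dnajb4 had 47.5 to 49.9 CPM and Cacybp 62.7 to 75.3 CPM. Bag3 had 61.1 to 86.6 CPM there and Hspb1 37.2 to 90.9 CPM. Each of these ranges overlapped that after AAV-Cre or lay above it. In ApoYap ctrl each of these genes lay below every AAV-Cre library. Among 23 genes of endoplasmic reticulum stress 0 were called, with 5 higher and 1 lower without adjustment and a median of 0.21. There AAV-Cre 1 stood highest, with 18 of 23 genes above every control, or 78.3% beside 25.2% of all genes in that library. The 6 genes in AAV-Cre 2 (26.1%) and 7 in AAV-Cre 3 (30.4%) were near the 26% and 25.3% of all genes.

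The remaining genes that rose were spread over several functions. Tsku, a secreted protein made by hepatocytes, had 23.9, 25.4 and 20.2 CPM after AAV-Cre and 5.19, 10.1, 3.53 and 3.15 CPM in the controls (2.08 ± 0.42, adjusted p = 0.0362 by edgeR). Its call was lost without AAV-Cre 2 or 3 or without control 1, 3 or 4 (0.101 to 0.142). Tcim, a small regulator of transcription, had 34.5, 31.7 and 32.3 CPM against 13.4 to 16.01 CPM (1.17 ± 0.24, adjusted p = 0.0342). Nrbf2, a subunit of the autophagy lipid kinase complex, had 18.04, 16.3 and 18.98 CPM against 6.99 to 8.96 CPM (1.10 ± 0.18, adjusted p = 0.00741). Klf13, a Krüppel-like transcription factor, had 160, 156 and 177 CPM against 71.8 to 100 CPM, a doubling with an adjusted p of 0.00937. Ino80d, a subunit of the INO80 chromatin remodeller, had 17.6, 18.7 and 27.1 CPM against 9.46 to 10.2 CPM (1.09 ± 0.20, adjusted p = 0.0112). AAV-Cre 3 was needed for all 4 of the last genes, whose adjusted p-values without it were 0.17 for Tcim, 0.069 for Nrbf2, 0.0972 for Klf13 and 0.196 for Ino80d. The call of Tcim was also lost without AAV-Cre 2 or any 1 control (0.078 to 0.109), that of Klf13 without control 1 (0.0546) and that of Ino80d without control 1 or 3 (0.0546 and 0.0508).

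Lipoproteins carry lipid out of the liver. Apob, the structural protein of very low density lipoprotein, had 1101, 1136 and 1286 CPM against 543 to 690 CPM (0.86 ± 0.19, adjusted p = 0.0391 by edgeR) and was the 1 called among 35 secreted plasma proteins, whose median was -0.10. The Apob call held only without AAV-Cre 1 (0.0842 to 0.225 otherwise). No called gene was found among 26 genes of fatty acid synthesis, 32 of fatty acid oxidation, 31 of bile acids or 48 of amino acid catabolism, with medians of -0.03, 0.04, 0.09 and -0.06. Without adjustment, 1, 3, 6 and 2 of them were higher and 2, 2, 1 and 5 lower.

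The other genes called higher had log2 fold changes from 0.41 to 0.82 in 17 cases. They were Gfra1, Upf1, Dido1, Cd302, Gda, Snhg14, Dglucy, Colgalt1, Safb, Lrrc58, Herc1, BC005537, Tmcc1, Entpd5, Camsap2, Yy1 and, already named, Cacybp. Leaving out single libraries ended the call of all but Upf1 and Lrrc58 in at least 1 fit. Upf1 is the helicase of nonsense-mediated decay (36.2, 34.2 and 32.2 CPM against 18.03 to 22.6; 0.79 ± 0.13, adjusted p = 0.00741). Lrrc58 had 99.1, 98.9 and 92.8 CPM against 52.2 to 69.5 (0.67 ± 0.11, adjusted p = 0.00741). Snhg14 is a long RNA that lies antisense to other transcripts, so its reads are uncertain where strand is not stated. Dyrk3 and Tmc7 were called at low levels, the first with 1.92, 2.01 and 4.47 CPM against 0.451 to 0.707, the second with 5.87, 3.55 and 4.28 CPM against 1.02 to 1.91. The call of Dyrk3 held only without AAV-Cre 1 or 2 and that of Tmc7 only without AAV-Cre 2 or control 2.

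Of the 6 genes that fell, Bmp4 had the smallest adjusted p. It encodes a secreted ligand of the BMP pathway and lies at chr14:46383520-46390669 on the minus strand. It had 8.97, 6.03 and 5.49 CPM after AAV-Cre and 22.9, 21.2, 29.4 and 37.1 CPM in the controls, with a log2 fold change of -2.02 ± 0.33 (adjusted p = 0.00741, edgeR). Without AAV-Cre 2 or AAV-Cre 3 its adjusted p was 0.0516 or 0.0972. Markers of stellate cells and fibroblasts, cells in which Bmp4 can be made, were lower in median too (-0.57 over 19 genes, 0 called, 0 higher and 1 lower at an unadjusted p under 0.05). Their sum was 65.0 to 135 unscaled CPM after AAV-Cre and 73.3 to 180 in the controls. The part of these cells in the Bmp4 result was not tested.

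Incenp, a subunit of the chromosomal passenger complex of mitosis, had 0.747, 1.06 and 1.02 CPM against 2.24 to 3.58 CPM (-1.64 ± 0.36, adjusted p = 0.0414). It was called in none of the fits that left out a library, with adjusted p-values up to 0.206. All 24 genes of the G2/M list had a negative fold change, with a median of -0.93 and library medians of -0.64, -0.52 and -0.48 beside -0.25 to 0.29 in the controls. None was called, and 0 were higher and 2 lower at an unadjusted p under 0.05 by edgeR. Levels of these genes were low. Tyms, a nucleotide synthesis enzyme of S phase, had 2.03, 2.25 and 1.95 CPM against 2.39 to 4.95 CPM (-0.93, adjusted p = 0.103).

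Rnf125, a ubiquitin ligase that acts on the RNA sensor RIG-I, had 137, 128 and 123 CPM against 218 to 358 CPM (-1.16 ± 0.25, adjusted p = 0.0391). Rraga, a small GTPase of the amino acid sensing machinery of mTORC1, had 105, 114 and 91.2 CPM against 163 to 179 CPM (-0.71 ± 0.13, adjusted p = 0.00937). Gdpgp1, a GDP-glucose phosphorylase, had 4.27, 3.67 and 3.72 CPM against 6.65 to 9.31 CPM (adjusted p = 0.0401). Zfp937, a zinc finger gene at the edge of detection, had 0, 0 and 0.372 CPM against 1.30 to 1.67 CPM (adjusted p = 0.0202). The call of Rraga was lost without AAV-Cre 3 (0.142) and that of Zfp937 without AAV-Cre 2 or control 1 (0.114 and 0.0546). That of Rnf125 held only without control 2 (0.0508 to 0.213 otherwise) and that of Gdpgp1 only without control 4 or AAV-Cre 1 (0.0957 to 0.213 otherwise).

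The ribosome and the respiratory chain are built from large sets of abundant proteins, and their genes had small negative fold changes without a call. Of 57 ribosomal protein genes 0 were called, 54 had a fold change below 0, 30 lay wholly below the controls (7.52% of all genes did) and the median was -0.21. Of 46 nuclear genes of the respiratory chain 0 were called, 42 were below 0, 21 did not overlap and the median was also -0.21. Without adjustment, 15 and 10 genes of these lists were lower and 0 higher by edgeR. AAV-Cre 1 differed least in both, with -0.14 and -0.07 beside -0.24 and -0.31 in AAV-Cre 2 and -0.25 and -0.27 in AAV-Cre 3. The hepatocyte identity list of 14 genes, which contains Alb, summed to 72376 to 81361 unscaled CPM after AAV-Cre and 84311 to 93205 in the controls. Alb, serum albumin, had 47602 to 58006 CPM against 61248 to 67309 CPM, a log2 fold change of -0.30 that was not called (adjusted p = 0.43). Genes of pericentral hepatocytes had a median of 0.46 with 0 of 29 called, and library medians of 0.11, 0.61 and 0.45. Without adjustment 3 were higher and 0 lower by edgeR, beside 7.78% and 5.48% of all genes. Of the 29, 10 lay above all controls, where 8.3% of all genes did. Periportal genes had a median of -0.08 with 0 of 25 called, and 3 higher and 6 lower without adjustment. Cyp7a1, which starts the classical route from cholesterol to bile acids, had 124, 86.0 and 64.9 CPM against 25.8 to 55.0 CPM (1.13 ± 0.71, adjusted p = 0.517).

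No gene of the Hippo pathway, the subject of the study, was called. In that pathway the kinases LATS1 and LATS2 keep the coactivator YAP out of the nucleus. Yap1 had 53.7, 44.7 and 40.3 CPM after AAV-Cre and 43.6 to 46.7 CPM in the controls (0.05 ± 0.12, adjusted p = 0.913 by edgeR). Lats1 had 13.9, 16.1 and 13.4 CPM against 9.67 to 12.96 CPM (0.35, adjusted p = 0.488), and Lats2 had 14.1, 15.02 and 14.2 CPM against 8.83 to 10.95 CPM (0.56, adjusted p = 0.231). Neither kinase was lower after Cre in this strain. The YAP targets Ccn1, Ccn2 and Ankrd1 had log2 fold changes of -0.18, 0.38 and 0.33 with adjusted p-values of 0.872, 0.845 and 0.918, and that of Ccn1 turned to 0.04 with all 12 untreated libraries as control. Of 20 YAP targets 0 were called, 2 were higher and 2 lower without adjustment, and the median was -0.01, and of 21 pathway components 0 were called, 1 higher and 1 lower without adjustment, with a median of 0.04.

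BL/6 mice given doxycycline were the other treated group of the strain, and AAV-Cre was also tested against BL/6 Dox directly, in the fit that all 25 libraries share. That test called 161 genes higher (1.24%) and 80 lower (0.617%) after AAV-Cre, 1.86% in all, among them 22 of the 39 genes. With only these groups in the fit there were 37 higher and 4 lower. Without AAV-Cre 2 or 3, or Dox 1 or 2, there were 45, 47, 71 or 67 higher and 9, 10, 32 or 21 lower, and without Dox 3 146 were lower. Because the AAV-Cre libraries are the same, this is not an independent test of them. Cdkn1a had 5.22 to 10.8 CPM in BL/6 Dox (4.66 ± 0.53, adjusted p = 0.000187), Ccng1 10.6 to 13.2 CPM (1.14 ± 0.15, adjusted p = 0.00023) and Mdm2 19.0 to 26.4 CPM (0.89 ± 0.17, adjusted p = 0.00864). Among the p53 targets 7 of 24 were called higher, among heat shock genes 11 of 20, among endoplasmic reticulum stress genes 10 of 23, among NF-kB targets 6 of 20 and among interferon genes 7 of 70. Hspa1b, an inducible HSP70, had 22.8, 80.3 and 53.9 CPM after AAV-Cre, at most 4.27 CPM in BL/6 Dox and 3.46 to 63.0 CPM in BL/6 ctrl. Control 4 had the highest of these control values and overlapped the treated libraries. Against BL/6 ctrl, doxycycline itself gave 3 genes higher and 13 lower (0.0231% and 0.1%). Klf13 and Herc1 were called higher after both treatments, which share these controls, and Klf13 had 114 to 193 CPM in BL/6 Dox, a range that holds all 3 AAV-Cre values (log2 difference 0.09, adjusted p = 0.846).

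The 39 genes depended on which untreated mice stood as control. These checks were added after the data were seen, and all use the same 3 AAV-Cre libraries. Against the ApoYap ctrl libraries 36 of the 39 were called in the same direction (337 genes higher and 166 lower in all, 2.6% and 1.28%, together 3.88%). With all 12 untreated libraries as control 24 of them were called, among 59 higher and 15 lower (0.455% and 0.116%, together 0.571%). Against the Lats1/2 flox ctrl libraries 3 of the 39 were called, Ccng1, Nfe2l2 and Gbp3 (12 higher and 4 lower in all, 0.0925% and 0.0308%), and for 24 of the 39 the AAV-Cre values overlapped those of flox ctrl. Cdkn1a was among the calls lost there, where flox ctrl 4 had 187 CPM and flox ctrl 1, 2 and 3 had 51.7, 45.9 and 36.3 CPM. Trp53inp1 was also highest in flox ctrl 4, at 92.9 CPM beside 27.8 to 46.9 CPM in flox ctrl 1 to 3. Flox ctrl 4 is the library with the highest sum of pancreatic transcripts, but AAV-Cre 2, which also held them, was kept. Leaving out flox ctrl 4 removes the highest control values of Cdkn1a and Trp53inp1, so the calls regained for them depend on that choice. Without flox ctrl 4 Cdkn1a was called at 2.16 (adjusted p = 0.0145 by edgeR), Trp53inp1 at 1.72 (0.0228) and Ccng1 at 0.78 (0.0438). Nfe2l2 was called at 0.66 (0.0145) and Entpd5 at 0.64 (0.0471). Mdm2, which was not called against BL/6 ctrl, was called at 0.98 (0.0234), while Gbp3 was at 2.58 (0.058).

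Several genes called against BL/6 ctrl had AAV-Cre levels in or near the range of the untreated floxed strain. Whether strain or an unrecorded batch had a part in this was not tested. Apob had 1173 to 1328 CPM in flox ctrl, overlapping the treated libraries. Tcim had 27.9 to 35.1 CPM there and 21.7 to 50.3 CPM in ApoYap ctrl, while BL/6 Dox, at 5.84 to 11.8 CPM, was lower than BL/6 ctrl. Bmp4 had 7.27 to 17.2 CPM in flox ctrl and 19.5 to 30.6 CPM in ApoYap ctrl. Noct had 12.2 to 15.8 CPM in flox ctrl, between BL/6 ctrl and AAV-Cre. By contrast, Ccng1 stayed within 11.2 to 17.3 CPM in all 12 untreated libraries and Nfe2l2 within 68.7 to 96.2 CPM, below every AAV-Cre library.

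**Figure D5:**
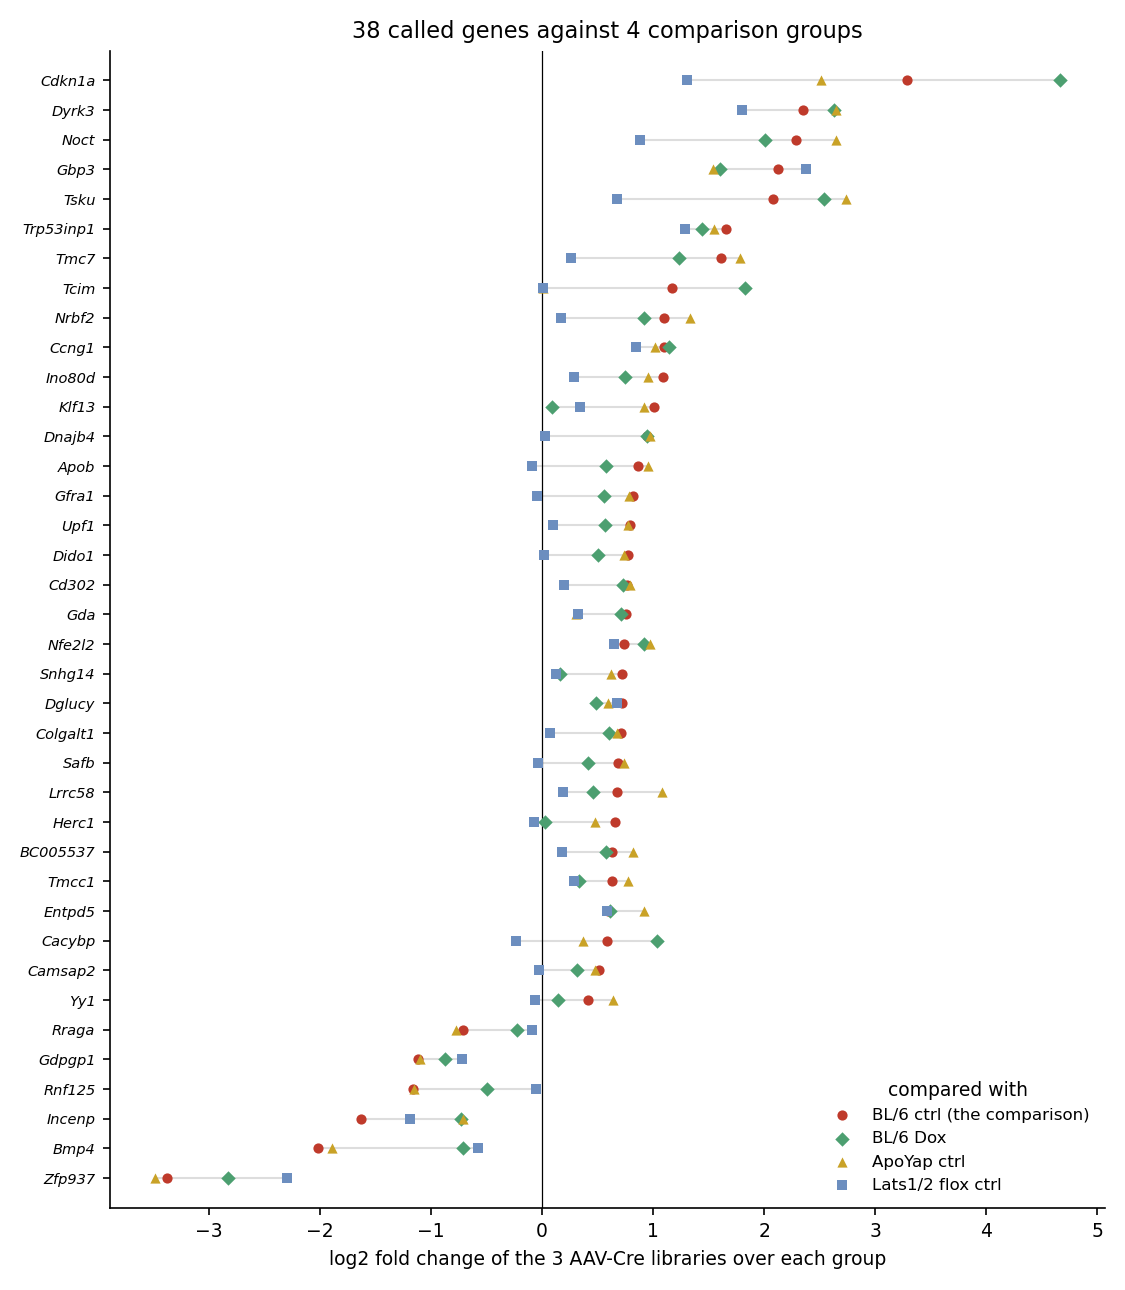
For 38 of the 39 called genes, the log2 fold change of the 3 AAV-Cre libraries over BL/6 ctrl (red), BL/6 Dox (green), ApoYap ctrl (yellow) and Lats1/2 flox ctrl (blue); the red points chose the genes. For Ccng1 and Nfe2l2 the 4 symbols lie within 0.85 to 1.14 and 0.64 to 0.97, whereas for Apob the blue symbol lies at -0.09.

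The same virus and dose had also been given to Lats1/2 floxed mice, labelled Lats1/2 KO, and those livers were sampled after 1 week. Lats1 had 2.97 to 5.10 CPM there and 12.3 to 14.9 CPM in flox ctrl (log2 fold change -1.67, adjusted p = 4.1e-06 by edgeR). Lats2 had 7.70 to 17.8 CPM against 12.95 to 13.7 CPM and was not called (-0.13, adjusted p = 0.651), and whether its 3′ reads come from the part that Cre removes is not given. Strain, the labelled deletion and time all differ from the 24-hour group and cannot be told apart. Each treatment was set against its own untreated strain, and the difference of the 2 log2 fold changes was tested in the same model. The knockout against its own controls called 4926 genes (38%). The difference was called for 3167 of 12970 genes (24.4%), for 28 of the 39, and for 10 of the 17 genes chosen by fixed criteria of size and level. The 39 and the 17 were chosen by their fold change at 24 hours, which this difference contains with its sign reversed. A share above that of all genes is therefore partly built in. Ccng1 was higher by 0.92 in the Lats1/2 KO (28.1 to 29.0 CPM against 13.1 to 17.3 CPM in flox ctrl, adjusted p = 3.48e-05), beside 1.09 at 24 hours, a difference of -0.17 (adjusted p = 0.6). For Cdkn1a the 2 values were 2.24 and 3.29 (difference -1.05, adjusted p = 0.27). Trp53inp1 differed, with -0.12 in the knockout, where it had 41.9 to 52.2 CPM, and 1.66 at 24 hours (difference -1.78, adjusted p = 0.0119). Noct differed by -3.83 (adjusted p = 7.07e-05), being lower by 1.55 on the log2 scale in the knockout and higher by 2.28 at 24 hours. Bmp4 and Incenp differed the other way, by 4.17 and 5.42 (adjusted p = 2.32e-06 and 1.7e-08), since both were higher in the knockout, with 24.7 to 56.2 CPM and 21.9 to 35.03 CPM. The median p53 target lay 1.32, 1.49 and 0.87 above the BL/6 ctrl mean in Lats1/2 KO 1, 2 and 3 and 0.00 to 0.18 above it in flox ctrl, on the log2(CPM + 0.5) scale.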

How the data were processed

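The authors deposited 1 table of counts, whole numbers per gene with no normalization, from QuantSeq 3′ libraries of sorted hepatocytes. Per the submitters' processing notes, FastQC, cutadapt and STAR 2.6.1d were used with mm10 (GRCm38). How reads were counted, with which annotation and whether by strand, was not given in the sources used here. Of 37117 genes, edgeR 4.0.16 (R 4.3.3) kept 12970 by filterByExpr (minimum count 10, total 15). Libraries were scaled by TMM, and all 25 libraries entered a single quasi-likelihood fit with a mean for each group (robust, common dispersion 0.0425). Contrasts were tested with glmQLFTest at a Benjamini-Hochberg adjusted p under 0.05. Standard errors were taken as the fold change (log2) divided by the root of F. Replicates correlated at 0.967 to 0.98 and differed by more than sampling noise (chi-square per degree of freedom at least 7.69). The kit names no molecular identifiers, so counts are not independent molecules.

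Named genes were the 12 higher and 12 lower with the largest change among those called, not overlapping and with average log2 CPM of at least 2 (17 qualified), up to 4 members of each of 42 lists with the smallest p, called members of 3 lists, and Hippo and liver genes. The other called genes were named after their values were seen, except 1 that is not reported here. The members and lists were chosen with earlier results of these data known. Gene positions are from GENCODE M21, promoters from RefSeq. Alternatives were DESeq2 1.42.0, limma 3.58.1 voom, other scalings, filters, thresholds, controls, the replicate number as a block, and leaving out each library. The fit was tested on simulated data.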

Additional observations from a re-analysis of the deposited data

Results flagged for a closer look

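Among 72 genes examined, 11 had a control value far from the other 3 BL/6 ctrl libraries. Chance alone singles out about 1 in 20 groups of this size, and the genes were not independent. In CPM they were Trp53inp1 at 69.2, Nfkbia at 400.1, Mt2 at 184, Per1 at 9.01 and Hspa1b at 63.0 in control 4, Lcn2 at 12.2, Saa2 at 167 and Por at 157 in control 2, Gdf15 at 233 in control 3, and Eda2r and Phlda3 at 0.236 each in control 1. Control 4 thus had the high value for 5 of these 11 genes. The screen compares the gap to the next library with the range of the controls. Eda2r and Phlda3 had no counts in the other 3 controls, so any count in control 1 would have been flagged.

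The change from untreated mice of the strain differed between BL/6 AAV-Cre (24 hours) and Lats1/2 KO (1 week) for several named genes. The log2 fold change of the latter less that of the former (edgeR) was -3.83 for Noct, -1.78 for Trp53inp1 and -1.18 for Nrbf2. It was -1.17 for Klf13, -1.15 for Tcim, -1.06 for Ino80d, -0.93 for Dnajb4, 4.17 for Bmp4 and 5.42 for Incenp. Strain, time and the labelled deletion of Lats1 and Lats2 cannot be told apart in these differences. The genes were chosen by their fold change at 24 hours, which is part of each difference.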

How the results depend on the processing

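Scaling moved the median of all genes by at most 0.013 on the log2 scale, and RLE scaling, total counts alone and TMM without the 50 most abundant genes gave 39, 40 and 45 calls. Against BL/6 ctrl, the genes called higher and lower were 278 and 224 with only the compared groups in the fit, 140 and 51 by DESeq2, 327 and 191 by limma voom, 59 and 15 with all 12 untreated libraries, 8 and 2 at an adjusted p under 0.01, and 0 and 0 in a test against a fold of 1.5. They were 55 higher with at least 10 CPM in 3 libraries, 12 higher at a log2 fold change of at least 1, 12 and 14 higher with Lats1/2 flox ctrl or flox ctrl 1 to 3 as control, and 337 and 166 with ApoYap ctrl. Leaving out 1 library gave 6 to 99 higher and 1 to 22 lower. Of the 39 calls, 36, 37 and 39 were kept by the fit of the compared groups, DESeq2 and voom. Against BL/6 Dox, the calls were 99 and 42 with no filter, 37 and 4 with only the compared groups, 35 and 9 at an adjusted p under 0.01, 85 and 16 at a log2 fold change of at least 1, 7 and 0 against a fold of 1.5, 262 and 223 by DESeq2, and 45 to 169 and 9 to 146 without 1 library. The named genes with a different response in Lats1/2 floxed mice numbered 10, but 6 with total counts alone or against a fold of 1.5, and 10 to 12 without 1 library.

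Deviations of same-numbered AAV-Cre and control libraries from their group means correlated at -0.138, -0.004 and -0.036. Those of differently numbered libraries ran from -0.13 to 0.16. With so few libraries these values cannot show whether the numbers pair the samples. With the replicate number as a block, 26 genes were called against BL/6 ctrl (21 of the 39) and 95 higher and 31 lower against BL/6 Dox.

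Some log2 fold changes turned sign. With Lats1/2 flox ctrl as control they were Apob -0.089, Cacybp -0.23, Camsap2 -0.032, Gfra1 -0.046, Herc1 -0.076, Safb -0.038, Yy1 -0.069, Saa2 -0.017, Hspb1 -0.075, Bag3 -0.47, Ccn1 0.28, Alb 0.026 and Cyp7a1 -0.12. With flox ctrl 1 to 3 they were Apob -0.12, Cacybp -0.26, Camsap2 -0.00505, Rnf125 0.32, Yy1 -0.053, Zmat3 -0.038, Saa2 -0.20, Hspb1 -0.15, Bag3 -0.57, Ccn1 0.13 and Cyp7a1 -0.24. With ApoYap ctrl they were Ccn1 0.035 and Alb 0.052, and with all untreated libraries Ccn1 0.044. Without 1 library, Yap1 ran from -0.0765 to 0.136 and Ccn1 from -0.45 to 0.046. Against BL/6 Dox, Klf13 was -0.026 by voom and ran from -0.029 to 0.22 without 1 library. The cause was not tested.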
